A study of Drosophila melanogaster with 6 samples.

Results

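The genes described here are the 200 probe sets that stood highest in 1 of 3 batches of control Drosophila melanogaster embryos relative to the other control batches. They were chosen by their signals in the control arrays alone. Of 18769 probe sets on the array, 8298 had a mean control signal of at least 100 and are called measured below. For each of these, log2(signal + 16) in control replicate 1 was set against replicate 2 and against replicate 3, and the smaller of the differences was the score. The 200 highest scores, 2.41 per 100 measured probe sets, make up the set. Of the 200 members, 189 carried 1 gene name and stood for 179 genes, 7 carried several names and 4 carried none.

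The study compared embryos whose mothers carried 2 copies of bicoid (2xbcd, the control) with embryos whose mothers carried 6 copies (6xbcd). The 2xbcd embryos came from TT16 females and the 6xbcd embryos from bcd+t8 females, and TT16 males were the fathers in both crosses. Eggs were collected over 90 minutes and kept for 8 hours at 25 °C, unfertilized eggs were left out, and the embryos were labelled as stages 12 to 13. Total RNA of more than 100 dechorionated whole embryos per batch was measured on 1 array, with 3 batches per genotype and independent RNA for each. The design paired a 2xbcd with a 6xbcd batch under each replicate number. Each embryo sample was a pool of whole animals, so fewer cells of a type and less RNA per cell cannot be told apart in any value below.

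The larval cuticle is a layer of chitin and protein that the epidermis secretes late in embryogenesis, after the germ band has retracted. Its proteins belong to large families, among them the chitin-binding Cpr proteins with the Rebers and Riddiford motif, the Lcp larval cuticle proteins and the Tweedle proteins, which help to set body shape. Many of these genes are short, lie in clusters and come on in the last part of embryonic life. Contractile proteins of the body wall muscles also accumulate late, once myoblasts have fused. bicoid RNA is laid down by the mother at the anterior end of the egg, and its protein, a transcription factor, sets up head and thorax.

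The values are array signals scaled by the authors so that each array had a trimmed mean of 500. A signal compares arrays for 1 probe set and does not compare genes with each other. The main bicoid probe set read 860.6, 546.4 and 301.0 in 2xbcd replicates 1 to 3, and 2335.1, 1497.4 and 1375.1 in the 6xbcd replicates. All 6xbcd values were above all 2xbcd values, in the order of the labels. RNAs of eggshell and yolk proteins, which mark ovary and mother, were near the floor, with none of 17 probe sets measured, 13 absent on all 6 arrays and a summed signal of 317 to 402. For the list of neuroblast genes, 24 of 29 probe sets were measured, with a summed signal of 36321 to 48227. The sums of different lists are not compared with each other.

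By their median signal, the members were high on 3 of the 6 arrays. Their median signal was 527 in 2xbcd replicate 1, 109 in replicate 2 and 76.3 in replicate 3. It was 401 in 6xbcd replicate 1, 153 in replicate 2 and 506 in replicate 3. The control values follow from the way the members were chosen, but the 6xbcd values do not, and 2 of the 3 6xbcd batches lay close to control replicate 1 while 6xbcd replicate 2 lay close to control replicate 2. The members together made up 1.58%, 0.313% and 0.173% of all signal on the 2xbcd arrays and 1.07%, 0.411% and 1.43% on the 6xbcd arrays. Present calls, which the array software gives where a transcript was detected, were made for 197, 156 and 127 members in 2xbcd and for 195, 167 and 196 in 6xbcd. Control replicate 1 gave the highest of all 6 values for 138 members. A name for the set as genes of 1 control batch is therefore too narrow: in most members the levels were also high in 6xbcd replicates 1 and 3.

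**Figure D1:**
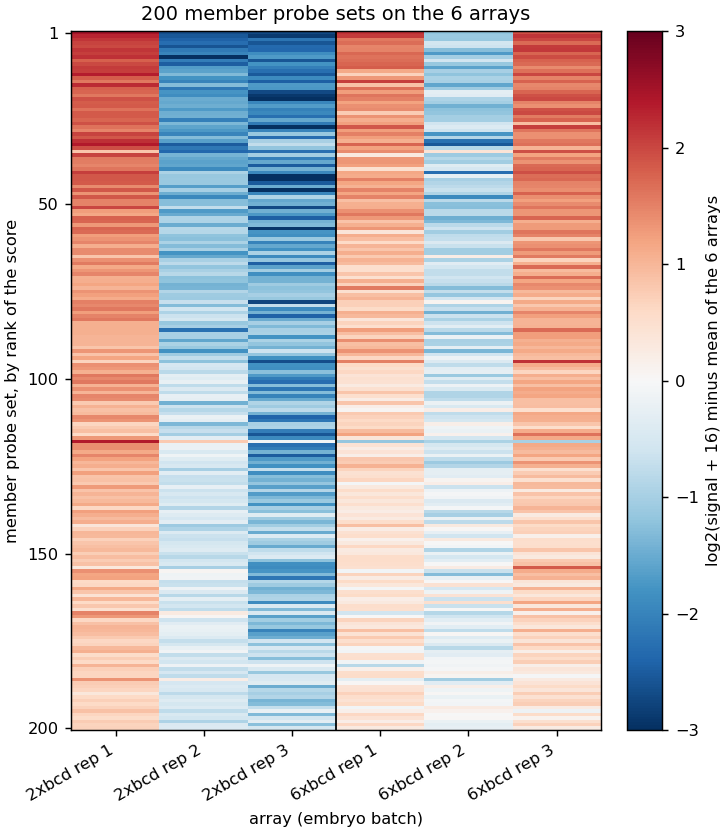
Each row is 1 of the 200 members in order of the score, each column is 1 array, and the colour is log2(signal + 16) minus the mean of the 6 arrays. Control replicate 1 and 6xbcd replicates 1 and 3 are high over most rows, and control replicates 2 and 3 are low. 6xbcd replicate 2 is the lowest 6xbcd array in 188 rows but lies within 2-fold of control replicate 1 in 47. Only the 3 control columns were used to choose the rows.

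The score ran from 5.14 to 1.09 with a median of 1.80, against a median of -0.12 over all measured probe sets. As folds on the log2(signal + 16) scale, the nearer of the other control batches was lower by 35.2-fold at the top of the set, 3.49-fold at its median and 2.13-fold at its edge. Against both other control batches, 88 members were over 4-fold and 41 over 8-fold higher in replicate 1. The edge of the set was not a gap. The last members were Hasp, prc, which encodes the heart matrix protein Pericardin, and alpha-Est5, an esterase gene. alpha-Est5 had 221.9, 95.8 and 85.8 in the 2xbcd replicates. Just outside lay CG14147 with a score of 1.09, NimB4, a Nimrod family gene of blood cells, with 1.08, and an unnamed probe set with 1.07. CG14147 had 305.5, 135.2 and 97.2 in the 2xbcd replicates, much like the last members.

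The 6xbcd batches, which took no part in the choice, differed among themselves in many of these genes. 6xbcd replicate 1 exceeded replicate 2 by a median of 1.17 on the log2 scale (2.26-fold) over the members, against -0.02 over all measured probe sets. By more than 2-fold, 115 of the 200 members (57.5%) were higher in replicate 1 than in replicate 2, against 1.8% of measured probe sets, and 0 members were lower, against 0.398%. 6xbcd replicate 3 exceeded replicate 2 by a median of 1.62 (3.07-fold), against -0.01 over all measured probe sets. Here 146 members (73%) were more than 2-fold higher, against 2.22%, and 0 were more than 2-fold lower, against 0.94%. Replicates 1 and 3 were much closer to each other, with a median difference of -0.29. None of the members was more than 2-fold higher in replicate 1 than in replicate 3, against 0.374%, and 11 (5.5%) were more than 2-fold lower, against 0.349%. Each of these differences is between single arrays, so no test was made of them.

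Among measured probe sets, most of those lowest by a wide margin in 6xbcd replicate 2 were members. A probe set more than 2-fold lower in replicate 2 than in both other 6xbcd batches was found 131 times, which is 1.58% of those measured, and 113 of these were members. That is 56.5% of the members. The signal minimum was set on the controls, so a member could pass it through control replicate 1 alone. Probe sets with low controls were not counted. Of 74 cuticle probe sets below that minimum, 17 and 20 were more than 2-fold higher in 6xbcd replicates 1 and 3 than in replicate 2. By order alone, 6xbcd replicate 2 was the lowest of the 6xbcd batches in 188 members (94%) and in 28.4% of measured probe sets. The highest was replicate 3 in 153 members, replicate 1 in 44 and replicate 2 in 3. Among the few members that did not have their lowest 6xbcd value in replicate 2 were CG1304, TwdlT, NLaz and 1 Arc1 probe set.

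**Figure D2:**
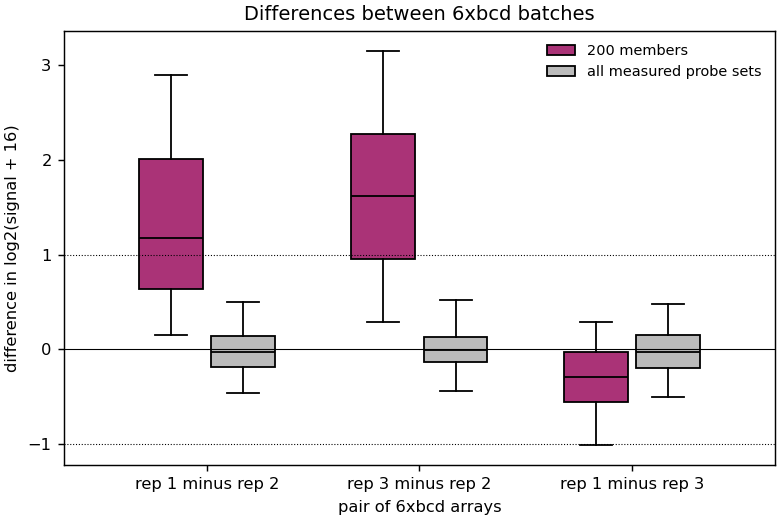
The difference in log2(signal + 16) between each pair of 6xbcd arrays is shown for the members and for all measured probe sets, with medians as lines, quartiles as boxes, whiskers from the 5th to the 95th percentile and dotted lines at a 2-fold difference. In the pairs that involve replicate 2 the members have medians of 1.17 and 1.62, with 191 and 194 of 200 above 0, and between replicates 1 and 3 a median of -0.29.

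Cuticle protein genes were the largest named group. A list of cuticle protein families matched 115 probe sets, of which 41 were measured and 29, for 28 genes, were members. By family the members were 9 of 14 measured Tweedle probe sets, 12 of 19 Cpr, 3 of 3 Lcp, 1 of 1 from the Ccp84A cluster and 4 of 4 Vajk. The list and the set were both chosen with earlier results of these arrays known, so the share is a description. In 6xbcd, over all 41 measured cuticle probe sets, the median difference was 1.23 between replicates 1 and 2 and 1.90 between replicates 3 and 2. More than 2-fold, 25 of the 41 were higher in replicate 1 and 29 in replicate 3, and 0 were lower in either. Summed over the list, the cuticle signal was 61088, 12076 and 5645 in the 2xbcd replicates and 50597, 15526 and 59381 in the 6xbcd replicates.

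TwdlB, a Tweedle cuticle gene, had the highest score of all. Its signal was 4449.3, 110.9 and 104.3 in the 2xbcd replicates and 3595.9, 327.1 and 3022.5 in the 6xbcd replicates. The 3 high arrays were separated from the 3 low ones by more than the whole span within either set, and 6xbcd replicate 1 was 10.5-fold and replicate 3 8.86-fold above 6xbcd replicate 2. TwdlL, next to it on chromosome arm 3R, had 4310.7, 138.0 and 104.9 in 2xbcd and 3816.0, 394.7 and 3936.2 in 6xbcd. TwdlN had 7527.9, 360.1 and 292.6 in 2xbcd and 5864.0, 1248.9 and 5981.2 in 6xbcd. In both, as in TwdlB, 6xbcd replicate 2 lay above the low controls. TwdlM read 4879.3, 320.3 and 221.9 in 2xbcd and 4488.9, 931.8 and 4807.7 in 6xbcd. TwdlP read 614.7, 48.7 and 21.0 in 2xbcd and 432.9, 71.6 and 501.3 in 6xbcd, also high in control replicate 1 and 6xbcd replicates 1 and 3.

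The Lcp and Ccp84A genes encode small larval cuticle proteins of the chitin-binding type. Lcp65Ag3 read 11841.8, 1962.7 and 449.5 in 2xbcd and 8811.5, 2292.4 and 8588.9 in 6xbcd. Lcp65Af, on the same arm, 3L, had 927.9, 33.7 and 25.9 in 2xbcd and 583.1, 72.5 and 922.0 in 6xbcd, and was not called present in 2xbcd replicate 2. Ccp84Ae had 1094.5, 34.1 and 64.9 in 2xbcd and 918.0, 110.4 and 888.3 in 6xbcd. These 3 genes differed in how the low controls were ordered: replicate 2 was above replicate 3 for Lcp65Ag3 and below it for Ccp84Ae.

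Among the Cpr genes, Cpr47Eg had 4737.6, 692.8 and 164.5 in 2xbcd and 2488.0, 469.6 and 3558.0 in 6xbcd. Cpr92F had 321.8, 17.9 and 10.9 in 2xbcd and 274.6, 30.8 and 392.2 in 6xbcd, and was called present on the 3 high arrays only. Cpr49Af, also present on the same 3 arrays, read 455.3, 17.4 and 37.0 in 2xbcd and 199.8, 5.9 and 293.4 in 6xbcd. For genes like these the low values are at the level where the software made no present call, so their folds rest on the added 16. Of the Vajk proteins, cuticle proteins of another family, Vajk3 had 1637.9, 167.6 and 76.6 in 2xbcd and 1057.5, 228.9 and 1157.1 in 6xbcd.

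Not every cuticle gene followed. Of the 12 measured cuticle probe sets outside the set, 7 were highest in control replicate 1 among the controls, and 1 and 3 were more than 2-fold higher in 6xbcd replicates 1 and 3 than in replicate 2. Cpr64Ad had 819.4, 525.4 and 154.7 in 2xbcd and 929.1, 387.7 and 1322.6 in 6xbcd, with replicate 2 the lowest 6xbcd batch, as in most members. Tb and TwdlQ are named for the lowest scores of the 12, -1.18 and -1.55. Tb, the Tweedle gene known from the Tubby mutation, had 210.9, 499.5 and 100.9 in 2xbcd and 147.7, 158.4 and 254.9 in 6xbcd, so control replicate 2 was highest. TwdlQ had 70.7, 238.5 and 21.2 in 2xbcd and 6.8, 24.3 and 55.8 in 6xbcd. A further 74 cuticle probe sets lay below the signal minimum, 34 of them absent on all 6 arrays, and 46 of the 74 were highest in control replicate 1.

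Genes of chitin itself gave 1 member. Of 24 measured probe sets for chitin synthesis and organisation it was obst-E, which encodes a chitin-binding protein that shapes the larval cuticle. That is 4.17%, against 2.41% of all measured probe sets. obst-E read 435.9, 65.1 and 36.5 in 2xbcd and 381.8, 94.6 and 512.2 in 6xbcd. kkv, the chitin synthase gene of the epidermis, read 1021.7, 959.0 and 814.7 in 2xbcd and 1106.3, 1135.2 and 749.2 in 6xbcd. Gasp, a chitin-binding protein gene of the trachea, read 2187.4, 2948.1 and 1123.9 in 2xbcd and 2223.2, 3413.3 and 1735.7 in 6xbcd. The replicate 2 batches were thus the highest for Gasp and the lowest 6xbcd batch for obst-E.

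**Figure D3:**
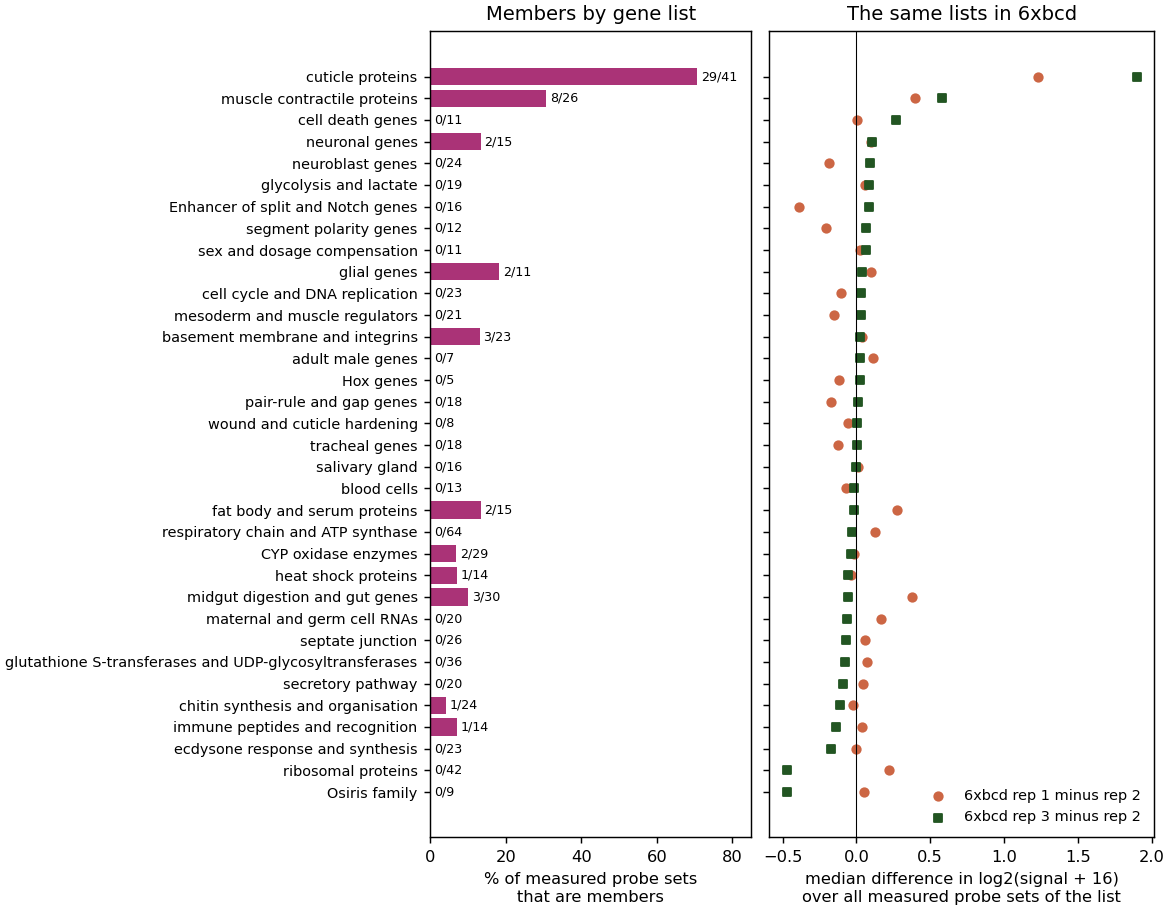
The left panel gives the percent of each list's measured probe sets that are members, and the right panel the median difference of all its measured probe sets between 6xbcd replicates 1 and 2 (circles) and 3 and 2 (squares). Cuticle proteins stand at 70.7% with medians of 1.23 and 1.90, muscle contractile proteins at 30.8% with 0.40 and 0.58, and the other lists at 18.2% or below.

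Many of the top members are known by a CG number alone. These were 86 of the 189 members with 1 gene (45.5%), against 31.2% of all measured probe sets with 1 gene. CG17290 had 1879.7, 62.7 and 77.4 in 2xbcd and 1267.0, 178.8 and 1704.3 in 6xbcd. CG13067 had 1481.2, 73.3 and 82.1 in 2xbcd and 1159.1, 92.5 and 1162.8 in 6xbcd. Their high and low arrays were those of the Tweedle genes. CG10953 had 2 member probe sets, and the one with the higher score read 5274.7, 396.3 and 244.1 in 2xbcd and 2738.4, 605.1 and 3877.6 in 6xbcd. EAChm, named as an enhancer of the acetyltransferase Chameau, had 1807.5, 60.6 and 76.0 in 2xbcd and 1261.4, 287.1 and 1957.1 in 6xbcd. Both followed the same 3 high arrays. CG13738 had 2062.3, 38.9 and 124.7 in 2xbcd and 1397.1, 209.9 and 1758.6 in 6xbcd. CG42819, called present on the 3 high arrays only, had 572.1, 27.3 and 17.2 in 2xbcd and 470.5, 28.9 and 353.7 in 6xbcd. CG13041 had 509.4, 27.2 and 15.7 in 2xbcd and 718.0, 73.4 and 580.1 in 6xbcd. CG13041 thus read higher in 6xbcd replicates 1 and 3 than in control replicate 1, which CG13738 and CG42819 did not. In CG10598 the 6xbcd batches that were high differed from each other: it read 3019.4, 221.4 and 86.9 in 2xbcd and 950.3, 240.0 and 2373.0 in 6xbcd.

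A few fatty acid enzyme genes among the members were picked out after their values were seen, with no list of such genes behind them, so they stand as single genes. CG8630, a fatty acid desaturase gene and one of the 25 genes with the highest score, had 723.0, 47.3 and 31.7 in 2xbcd and 268.3, 37.2 and 407.5 in 6xbcd. sit, an elongase gene for very long chain fatty acids, read 344.4, 5.3 and 25.6 in 2xbcd and 202.9, 36.2 and 174.3 in 6xbcd. CG5326, an elongase gene beside it, read 607.6, 57.5 and 35.4 in 2xbcd and 521.5, 102.5 and 613.1 in 6xbcd. In sit and CG5326 the lowest 6xbcd value was that of replicate 2. bond, the third elongase gene of that cluster, had narrower gaps, with 248.5, 69.4 and 85.2 in 2xbcd and 176.6, 73.2 and 132.4 in 6xbcd. CG1441, a fatty acyl-CoA reductase gene, had 760.5, 98.4 and 79.3 in 2xbcd and 499.1, 140.8 and 627.7 in 6xbcd.

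**Figure D4:**
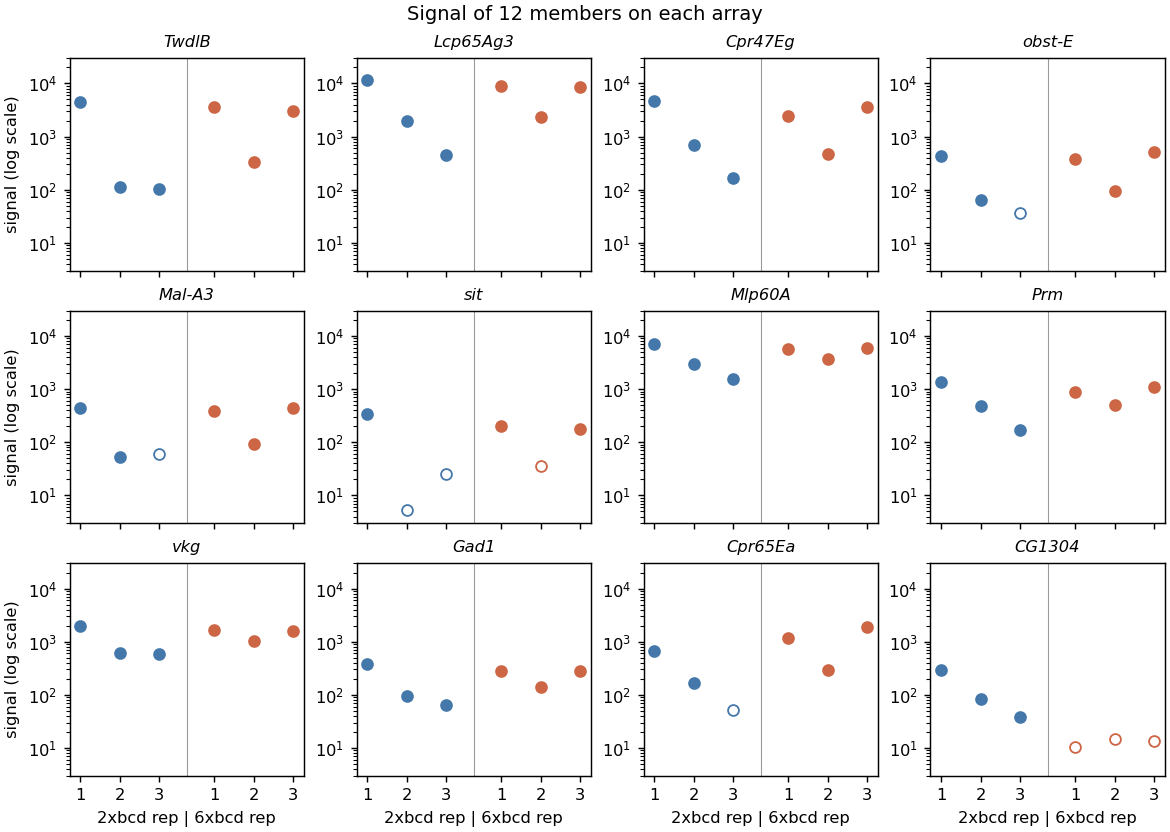
Signals of 12 members are plotted on a log axis for the 3 2xbcd arrays (blue) and the 3 6xbcd arrays (orange), 1 point per array, with open circles where no present call was made. TwdlB, Lcp65Ag3 and Cpr47Eg show the wide gaps of the cuticle genes, Mlp60A, Prm, vkg and Gad1 narrower ones, and CG1304 is low on all 6xbcd arrays.

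Muscle contractile genes were the next group, with 8 of 26 measured probe sets, for 6 genes, in the set. They were Mf (Myofilin of the thick filament) with 2 probe sets, Zasp66 (a Z-disc protein) with 2, Prm (Paramyosin), bt (the titin-like Projectin), Mlp60A (a muscle LIM protein) and Tm2 (a tropomyosin). Mlp60A had 7092.8, 2908.2 and 1545.0 in 2xbcd and 5605.9, 3633.4 and 5925.2 in 6xbcd. Prm had 1377.4, 476.8 and 167.6 in 2xbcd and 885.4, 497.6 and 1104.5 in 6xbcd. In both the gap between high and low batches was narrower than in TwdlB or Lcp65Ag3. The higher Mf probe set by score had 1727.3, 380.0 and 98.5 in 2xbcd and 1197.2, 380.4 and 1427.6 in 6xbcd. Zasp66, by its probe set with the higher score, read 1099.0, 303.6 and 61.2 in 2xbcd and 503.0, 213.3 and 833.8 in 6xbcd. Between 6xbcd replicates 1 and 2 the fold was 3.06 for this Mf probe set and 2.26 for Zasp66.

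Most muscle and cuticle members were higher in control replicate 2 than in replicate 3, 8 of 8 and 22 of 29, but by different amounts. Control replicate 2 exceeded replicate 3 by a median of 3.05-fold over the 8 muscle members, and by more than 2-fold in 6 of them. Over the 29 cuticle members the median was 1.27-fold, with 5 more than 2-fold higher and 1 more than 2-fold lower. The control arrays took part in the choice of members, so this contrast was not tested. Across all members the median difference between control replicates 2 and 3 was 0.50 on the log2 scale, with 57 more than 2-fold higher in replicate 2 and 5 more than 2-fold lower. In 6xbcd, which was not used to choose, replicate 1 exceeded replicate 2 by a median of 4.21-fold over the cuticle members and 1.64-fold over the muscle members. For replicate 3 over replicate 2 the medians were 4.83-fold and 2.29-fold. Muscle genes outside the set did not all share this: over all 26 measured probe sets the log2 medians were 0.40 and 0.58. Of the 26, 22 had a positive score. In 6xbcd, 5 were more than 2-fold higher in replicate 3 than in replicate 2, and 1 was more than 2-fold lower. The 2 genes named next went the other way. Msp300, a giant cytoskeletal protein gene of muscle, had 149.7, 118.6 and 64.5 in 2xbcd and 145.5, 230.0 and 101.1 in 6xbcd by 1 probe set, highest in 6xbcd replicate 2. Strn-Mlck, a muscle kinase gene, read 244.3, 193.9 and 193.6 in 2xbcd and 206.0, 294.8 and 172.6 in 6xbcd, also highest there. fau, with 4 member probe sets the gene with the most, was also higher in control replicate 2 than in replicate 3: 1 of its probe sets read 1129.9, 315.2 and 83.7 in 2xbcd and 601.9, 309.4 and 1022.4 in 6xbcd.

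Matrix and gut genes gave a few members each. Of 23 measured basement membrane and integrin probe sets 3 were members: vkg (a type IV collagen chain), Glt (Glutactin) and trol (Perlecan). vkg had 1935.9, 613.7 and 575.6 in 2xbcd and 1651.1, 1017.9 and 1592.4 in 6xbcd. Glt had 659.0, 221.9 and 127.9 in 2xbcd and 513.2, 325.3 and 555.6 in 6xbcd. Both had 6xbcd replicate 2 lowest of the 6xbcd batches, but by less than 2-fold. Over all 23 probe sets of that list the 6xbcd medians were 0.04 and 0.03. Of 30 measured midgut probe sets 3 were members: Mal-A3 (a maltase), zetaTry (a trypsin-like protease) and Ser6 (a serine protease). Mal-A3 had 450.0, 51.7 and 59.7 in 2xbcd and 385.6, 92.8 and 442.4 in 6xbcd. Jon99Fi, a gut protease gene outside the set, went another way, with 2146.9, 6675.3 and 1539.9 in 2xbcd and 3013.4, 1178.5 and 1871.0 in 6xbcd.

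Nervous system lists gave some members, 13.3% of measured neuronal and 18.2% of measured glial probe sets, against 2.41% of all measured probe sets. The neuronal list had 2 members of 15 measured probe sets, Gad1, the glutamate decarboxylase that makes GABA, and cpx, the synaptic protein Complexin. Gad1 read 386.3, 93.7 and 64.6 in 2xbcd and 278.0, 142.9 and 285.4 in 6xbcd. cpx read 327.4, 126.4 and 140.7 in 2xbcd and 189.2, 144.3 and 251.8 in 6xbcd. The glial list had 2 of 11, alrm, an astrocyte marker, and Swim, which encodes a secreted protein that binds Wingless. alrm read 355.3, 123.7 and 129.2 in 2xbcd and 259.6, 177.0 and 278.5 in 6xbcd. Swim read 354.9, 107.7 and 47.6 in 2xbcd and 207.8, 92.2 and 310.4 in 6xbcd. In all of these, 6xbcd replicate 2 was the lowest 6xbcd batch. The lists as a whole showed little of this. Over all measured probe sets the medians of 6xbcd replicates 1 and 3 over replicate 2 were 0.10 and 0.10 for the neuronal list. They were 0.10 and 0.04 for the glial list.

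Other lists gave 1 or 2 members. The fat body list had 2 of 15, Obp44a, an odorant-binding protein gene, and NLaz, a lipocalin gene. Obp44a read 1639.8, 322.8 and 275.9 in 2xbcd and 1610.2, 472.2 and 1750.5 in 6xbcd. Cytochrome P450 enzymes had 2 of 29, Cyp28d1 and Cyp6a23, and heat shock proteins 1 of 14, the small heat shock family gene l(2)efl, with 1797.9, 618.8 and 526.4 in 2xbcd and 1457.3, 876.5 and 1195.3 in 6xbcd. Immune genes had 1 of 14, IM33, with 3316.8, 1399.2 and 420.0 in 2xbcd and 1352.1, 876.8 and 2478.4 in 6xbcd. In all, 54 members stood in a list and 135 members with 1 gene stood in none.

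Only 2.41 per 100 measured probe sets were members, so a short list with 0 members is no result about that list. Of 34 lists with a measured probe set, 23 had no member. Among these were neuroblast genes (0 of 24), segment polarity genes (0 of 12), maternal and germ cell RNAs (0 of 20), ribosomal proteins (0 of 42), respiratory chain and ATP synthase (0 of 64), ecdysone response and synthesis (0 of 23) and the Osiris family (0 of 9), whose genes encode membrane proteins of cuticle-forming cells. Osi6 had 6166.0, 9284.4 and 3630.2 in 2xbcd and 11111.3, 10715.3 and 5159.3 in 6xbcd. The ecdysone-inducible gene ImpL1 had 324.8, 1106.6 and 324.8 in 2xbcd and 562.2, 1403.9 and 334.0 in 6xbcd. Both were higher in control replicate 2 than in control replicate 1. Neuroblast genes had 6xbcd medians of -0.19 between replicates 1 and 2 and 0.09 between replicates 3 and 2, and their summed signal was highest in control replicate 3. Adult male genes, a check on RNA from other animals, had a summed signal of 5006 to 5697 and 0 members of 7 measured.

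Between the genotypes, 0 members passed the test. The limma fit to log2(signal + 16), blocked by replicate number and adjusted by Benjamini-Hochberg over the 10137 probe sets present on at least 3 arrays, called 76 higher in 6xbcd (0.75%) and 58 lower (0.572%) at an adjusted p of 0.05. Of the 194 members tested 0 were called in either direction, and 17 had an unadjusted p under 0.05, 16 of them higher in 6xbcd, while 1511 of all 10137 probe sets had one. The members' share was below that of all probe sets. The rule chose members for a wide spread among the controls, and that spread enters the error of the fit. The share and the 0 calls are therefore a description and no result about the members. The members' median change was 0.74, against 0.01 over all tested probe sets, and 188 had a positive change. The rule bears on this: it chose genes with 1 high and 2 low controls, so that a 6xbcd group with 2 high batches has a higher mean. In this fit the block takes up spread that batches of 1 replicate number share, and the rest of the spread enters as error. Without the pair of replicate 3 the median change was -0.01, 95 members had a positive change and 12 were called, 4 higher and 8 lower. Over all 10137 probe sets that fit called 270. Without 2xbcd replicate 1, in a fit without the block, 5 members were called, all higher, beside 88 over all probe sets. That fit kept only the controls that the rule required to be low, so its direction follows from the choice of members. With arrays scaled to a common median 4 members were called, 3 higher and 1 lower, beside 173 over all probe sets.

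The authors' own pair comparisons show the same dependence on the pair. In the authors' deposited table, pair 1 had 5 members called increased in 6xbcd, against 4.71% of measured probe sets, and 112 (56%) called decreased, against 6.83%. For pair 2 the authors' deposited table had 67 members (33.5%) increased, against 7.12%, and 16 decreased, against 4.89%. For pair 3 it had 192 members (96%) increased, against 12.7%, and 1 decreased, against 10.6%. The median log2 ratio of the members in the authors' deposited table was -0.5 in pair 1, 0.4 in pair 2 and 2.7 in pair 3. The rule used the control array of each pair, so these shares are given as a description.

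Within 2-fold of control replicate 1 were 178 members in 6xbcd replicate 1, 47 in replicate 2 and 192 in replicate 3. These are 89%, 23.5% and 96% of the members, against 98.8%, 96.2% and 98.4% of measured probe sets. The median differences from it were -0.46, -1.87 and -0.23. Above it were 24, 0 and 60 members, which is 12%, 0% and 30% against 48.7%, 53.8% and 50.9% of measured probe sets. Control replicate 1 was the batch that chose the members, so values below it are what the choice favours. The mean of the 3 6xbcd arrays lay above control replicate 1 for 10 members.

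**Figure D5:**
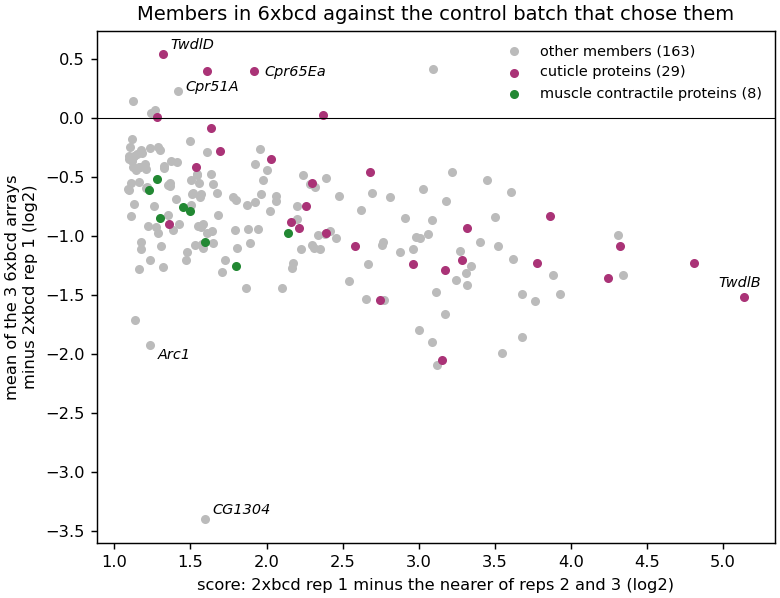
Each point is 1 of the 200 members, with the score on the x axis and the mean of the 3 6xbcd arrays minus control replicate 1 on the y axis, both on the log2(signal + 16) scale. Most points lie below 0, with a median of -0.84, TwdlD is highest at 0.53, and CG1304 stands alone at -3.40; both axes contain control replicate 1.

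The 5 members highest against control replicate 1 were TwdlD, CG14095, Cpr65Ea, Cpr51A and CG15022. TwdlD, a Tweedle gene, had 429.8, 162.2 and 80.5 in 2xbcd and 483.4, 404.7 and 1263.8 in 6xbcd, a limma change of 1.71 with an adjusted p of 0.310. Cpr65Ea had 668.2, 165.2 and 51.5 in 2xbcd and 1196.3, 298.3 and 1903.1 in 6xbcd, with a change of 2.15 and an adjusted p of 0.311. Cpr51A had 1798.6, 579.4 and 186.7 in 2xbcd and 2763.9, 1305.6 and 3684.2 in 6xbcd, with a change of 1.99 and an adjusted p of 0.274. In each of the 3 genes 1 or more 6xbcd values overlapped the control range. CG15022, a gene of unnamed function, had 670.1, 231.8 and 241.1 in 2xbcd and 971.9, 636.6 and 781.3 in 6xbcd. Its change of 1.19 with an SE of 0.219 had the lowest adjusted p of the members in the limma fit, 0.0917, and control replicate 1 lay inside its 6xbcd range. With arrays scaled to a common median its adjusted p was 0.00590. CG14095, not tested, read 327.2, 21.5 and 24.2 in 2xbcd, each time without a present call (absent), and 496.3, 239.7 and 713.5 in 6xbcd. It was absent in 6xbcd replicate 2 as well, and that value lay below the one of control replicate 1.

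CG1304, a serine protease gene on the X chromosome, was the exception of the set. It had 288.3, 84.5 and 38.6 in 2xbcd, all called present, and 10.3, 14.5 and 13.8 in 6xbcd, all absent. It was the only member of the 200 with all 6xbcd values below all 2xbcd values, and 0 members had them all above. The shares of all measured probe sets with such orders were not computed, so these counts are a description. On the log2(signal + 16) scale, the 2xbcd mean of CG1304 was 3.95-fold above a floor for 6xbcd. That floor took, on each 6xbcd array, the lowest signal among probe sets called present or the gene's own signal, whichever was higher. The fold is not a lower limit, since it depends on the offset and the batches. The limma change of CG1304 was -2.04 with an adjusted p of 0.175, which was 0.0114 with arrays scaled to a common median. The change was -1.19 with an offset of 64 and -1.30 without replicate 1. Ser6, the serine protease gene next to it, had 236.9, 99.0 and 54.9 in 2xbcd and 64.7, 32.1 and 102.6 in 6xbcd. Ser6 overlapped between the genotypes but, with CG1304 and 1 probe set of Arc1, was among the 3 members whose 6xbcd values were all more than 2-fold below control replicate 1. For that count too, the share of all measured probe sets was not computed. Arc1, which encodes a capsid-forming protein related to retrotransposon Gag, had 1211.7, 505.2 and 297.3 in 2xbcd and 278.1, 223.2 and 468.2 in 6xbcd by its probe set among these 3. CG33160, Cpr49Af and CG8630 were also low against control replicate 1, with means lower by 2.09, 2.05 and 1.99, but in them 6xbcd replicate 2 was far below the other 6xbcd batches. CG33160 had 515.3, 2.2 and 45.2 in 2xbcd and 328.2, 1.4 and 306.1 in 6xbcd.

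The place and span of the member genes took no part in the rule. Of 177 member genes with a place in the RefSeq gene table, 61 (34.5%) lay on chromosome arm 3L, against 20.2% of measured genes, and 14 (7.91%) on X, against 15.9%. Arms 2L, 2R and 3R held 28, 34 and 39, and chromosome 4 held 1. The median gene span was 1600 bases, against 2797.5 for measured genes, and 63 member genes (35.6%) were under 1000 bases, against 688 of 6876 measured genes. Counting genes with at most 2 others between them as neighbours, 62 member genes (35.0%) fell into 24 runs, 8 of them of 3 or more genes. The same share was not computed for other genes, so the count is a description. Whether probe sets of neighbouring genes of 1 family read each other's RNA was not tested, so runs are not counted as independent members.

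The longest run was on 3L from CG14570 to CG14565, with 6 member genes among 8 in order, and their median fold of 6xbcd replicate 1 over replicate 2 was 7.03. The Tweedle run on 3R from TwdlM to TwdlL had 4 members among 4 genes and a median of 6.91-fold. On 2R, the run from CG17290 to CG10953 had 4 of 5 and 4.43-fold. Another 3L run, CG13069 to CG13066, had 4 of 6 and 4.63-fold. The 3 runs named first and the elongase run of CG5326, bond and sit, at 4.19-fold, all showed replicate 3 above replicate 2 as well, with medians from 3.65 to 7.23. The pair CG7781 and CG14275 on 2L, at 1.30-fold and 1.38-fold, and the pair Ser6 and CG1304, at 1.20-fold and 1.55-fold, stood at the other end.

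Other probe sets of the member genes are described here. A second probe set with a high score was itself a member, which held for 8 genes. Measured probe sets that were left had to score below the edge of the set, so they are no independent check. Member genes had 29 further probe sets on the array, of which 8, for 4 genes, were measured. Their scores ran from -0.63 to 1.06, with 4 positive, and 0 of the 8 were more than 2-fold higher in 6xbcd replicate 1 or 3 than in replicate 2. A second Prm probe set had 464.6, 228.8 and 136.1 in 2xbcd and 374.5, 242.7 and 456.7 in 6xbcd, with the same order of high and low arrays as the member. The second l(2)efl probe set had 347.9, 159.1 and 151.5 in 2xbcd and 284.4, 183.5 and 260.5 in 6xbcd, and it also kept that order. One of the further trol probe sets did not: it had 186.5, 112.1 and 85.2 in 2xbcd and 152.1, 155.7 and 155.9 in 6xbcd, with 6xbcd replicate 2 between the other 6xbcd batches. For Glut4EF, a gene of a transcription factor, all 4 further probe sets had negative scores. One of these read 206.9, 302.0 and 329.4 in 2xbcd and 221.2, 325.8 and 273.8 in 6xbcd. The probe sets of Glut4EF thus disagreed.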

How the data were processed

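RNA of 6 batches of whole embryos was hybridised to Affymetrix Drosophila Genome 2.0 arrays, 1 array per batch, 3 per genotype. The authors' deposited table held, per array, a signal intensity and a detection call with its p-value, and for each pair a log2 ratio with a change call. GCOS, per the submitters' processing notes, is the tool named, with no version given. Tested on the deposited values, the mean signal after trimming 2% at each end was 500 on all 6 arrays. The arrays' number limits the precision, and intervals from depth do not apply.

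After 183 control probe sets were left out, log2(signal + 16) was computed, and the rule was applied to the control arrays. Folds are on that scale and understate changes of low signals. The test was limma 3.58.1 (R 4.3.3, lmFit, eBayes with an intensity trend, replicate block). It covered probe sets present on at least 3 of 6 arrays, at an adjusted p of 0.05 after Benjamini-Hochberg adjustment. It was tried on simulated data drawn from the fit's own variances, with changes added to probe sets taken at random. That trial does not bear on members chosen for their spread among controls. The design text states the pairing of replicates. After group means were taken off, arrays sharing a number correlated at 0.44, 0.39 and -0.19. Gene names came from the platform annotation, updated through the RefSeq gene table (Release 6 plus ISO1 MT): 13646 probe sets had 1 gene, 402 several and 4721 none, and 13543 matched RefSeq. That table gave only names, arms, gene order and spans. Of 640 entries in 35 gene lists, 622 matched.

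Members and lists were chosen with earlier results of these data known. Genes named in the text were drawn from the 25 with the highest scores, the highest-scoring members of each list, those at the edge of the set, those with the lowest limma p, the extremes against control replicate 1 and bcd. Others were chosen after their values were seen, including the elongases, the CG1441 reductase, fau, Glut4EF, Tb, TwdlQ and the genes of the runs. Alternatives varied the scaling, offset, signal minimum, filter, trend, block and replicates. The promoter motif search was not run, since no sequences were used here.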

Additional observations from a re-analysis of the deposited data

How the results depend on the processing

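Of the 200 members, 115 stayed when the mean control signal had to reach 200, and 17 cuticle probe sets were then in the set in place of 29. The other choices of scaling, offset, minimum, score and control replicate kept both counts within 1.5 times. The 2-fold shares and median differences among the 6xbcd arrays kept their direction under every scaling, offset and selection tried, but their size changed. Over members present on all 3 2xbcd arrays, the median of 6xbcd replicate 1 over replicate 2 was 0.87, with 42.9% more than 2-fold higher. For replicate 3 over replicate 2 these were 1.27 and 61.3%. With an offset of 64, replicate 1 over replicate 2 had a median of 0.95 and a share of 48%. The highest minus the lowest array median of the members in 6xbcd was 1.63, and leaving out 1 6xbcd array gave 0.325 (without replicate 2) to 1.63. In the genotype test, 0 members were called with or without the replicate block, which moved the calls over all probe sets from 134 to 97. Scaling to a common median called 4 members, 3 higher and 1 lower, beside 173 over all probe sets. An adjusted p of 0.1 called 1 member, higher. Median scaling moved the median change of all tested probe sets from 0.01 to -0.10. Leaving out 1 replicate or pair gave 0 to 12 members called, 0 to 5 higher and 0 to 8 lower. Only the fits without replicate 3 (12, beside 270 over all probe sets) and without 2xbcd replicate 1 (5, beside 88) called any. Fits that left out a single array had no replicate block. Without 2xbcd replicate 1, only the controls chosen to be low remained, so higher calls follow from the rule. Over all probe sets the calls were 5 without the intensity trend, 247 at 0.1 and 10 to 270 with 1 replicate or array left out. CG15022 passed the threshold with median scaling (adjusted p 0.00590), without replicate 3 (0.0201) and without 2xbcd replicate 1 (0.0176). CG1304 passed with median scaling (0.0114) and without replicate 3 (0.00698), Cpr51A with the same settings (0.0444 and 0.00262) and Cpr65Ea without replicate 3 (0.0100). The cause of these changes was not tested. With 3 arrays per genotype, small changes in members with a wide spread cannot be resolved.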
